A study of Mus musculus with 2 samples.

Results

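The 39 protein-coding Hox genes of the mouse were examined for open chromatin that belonged to only one of 2 adipose progenitor populations. They were taken by symbol (Hoxa, Hoxb, Hoxc or Hoxd followed by a number) from 21887 protein-coding genes of RefSeq assembly GRCm38.p6, which is mm10, and lie in 4 clusters. The peaks were those with their centre in a cluster or within 100 kb of it, which gave 20 of the 14483 peaks of the CD137 list and 10 of the 8002 peaks of the PDGFRα list. Both populations came from C57BL/6 mice. CD137+ cells (CD137 is the product of Tnfrsf9, used to mark beige progenitors) and PDGFRα+ cells (carrying a receptor tyrosine kinase of stromal progenitors) were separated with magnetic beads from SAT or VAT, put through adipogenic differentiation and treated with dexamethasone, a synthetic glucocorticoid, at 1 µM. Dexamethasone was given to both groups, so no difference between them measures the drug. Each group was 1 ATAC-seq library, an assay that marks accessible DNA with a transposase. The labels do not tie a depot to a population, so population and depot cannot be told apart, and the extraction text describes embryonic cells rather than fat.

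Hox genes encode homeodomain transcription factors that set position along the body axis. Within a cluster their order on the chromosome follows the order of their domains in the embryo, with low numbers anterior and high numbers posterior, and genes of the same number in different clusters are paralogs. Adult stromal cells and fat precursors keep a Hox pattern that differs between body sites and fat depots. Polycomb proteins hold silent Hox genes closed, and Trithorax-type proteins keep active ones open.

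What was deposited for each library is a list of unique peaks with positions, a gene ID and a place class, and with no heights or read numbers, so the depth is unknown. Peaks that both populations shared were not analysed here, which means that a Hox gene with no listed peak could have been accessible in both or in neither. Each group being a single library, no difference could be set against a spread between replicates or tested. Intervals are exact 95% intervals (binomial for shares, Poisson for densities) and cover counting error only. The classes up5k and down5k ignored the direction of transcription. Among gene IDs placed on a gene by their intronic and exonic peaks, all 165 up5k peaks of plus-strand genes and all 133 up5k peaks of minus-strand genes lay at the lower-coordinate side, and 105 of 106 and 133 of 134 down5k peaks lay at the higher-coordinate side. For minus-strand genes, which include the whole of HoxA, up5k therefore meant downstream. Positions below are read against gene coordinates, and the classes are quoted as deposited.

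Markers of the labelled tissue were split between the lists. Among 12 progenitor and adipocyte markers, Cd34, Dpp4, Fabp4 and Pparg carried peaks of the CD137 list alone, Tnfrsf9, Plin1, Dlk1 and Ly6a of the PDGFRα list alone, and 4 had none, Pdgfra and Adipoq among them. Of 4 endothelial markers, Erg had 3 PDGFRα peaks and Kdr had 2. None of 3 immune markers had a peak, 1 of 3 mesothelial markers (Lrrn4) had 1 PDGFRα peak, and 1 of 4 early embryo markers (Zp3) had 1 CD137 peak. Of all protein-coding genes 12.9% had CD137 peaks alone, 8.03% PDGFRα peaks alone and 28.1% a peak of either list. Beside these shares, counts in sets of 3 or 4 genes do not show which cells were present. Of 11 factors known to differ between fat depots, 3 had CD137 peaks alone, 2 had PDGFRα peaks alone and 6 had none. Over all protein-coding genes the first 2 shares were 12.9% and 8.03%. Tbx15, a T-box factor of subcutaneous fat, had 4 CD137 peaks, and En1 and Irx1 had 1 each, whereas Wt1 and Tcf21, factors of visceral mesoderm, had 2 PDGFRα peaks each. Their part in the Hox results was not tested.

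Counted together, the 4 Hox clusters held more peaks of both lists per kb than the genome did. Each cluster alone was also above the genome for both lists, but most of the single-cluster intervals contained the genome value. They did so for CD137 peaks inside HoxB, HoxC and HoxD and for PDGFRα peaks inside HoxA, HoxB and HoxD. Inside the 4 clusters, which together span 492 kb, lay 10 CD137 peaks and 7 PDGFRα peaks. That is 2.03 CD137 peaks per 100 kb (0.974 to 3.74) and 1.42 PDGFRα peaks per 100 kb (0.572 to 2.93), against 0.532 and 0.294 over the genome. The 100 kb flanks held 10 and 3, or 1.25 (0.599 to 2.30) and 0.375 (0.0773 to 1.10) per 100 kb. The interval of the PDGFRα flanks contained the genome value, and those of both lists inside the clusters and of the CD137 flanks did not. The CD137 flank count includes the peaks over the 5′ ends of Hoxb13 and Hoxc13, whose centres lay only 0.207 and 0.0405 kb outside their clusters. Its density was not computed without them, so it does not show that the flanks apart from Hox genes stood above the genome.

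**Figure D1:**
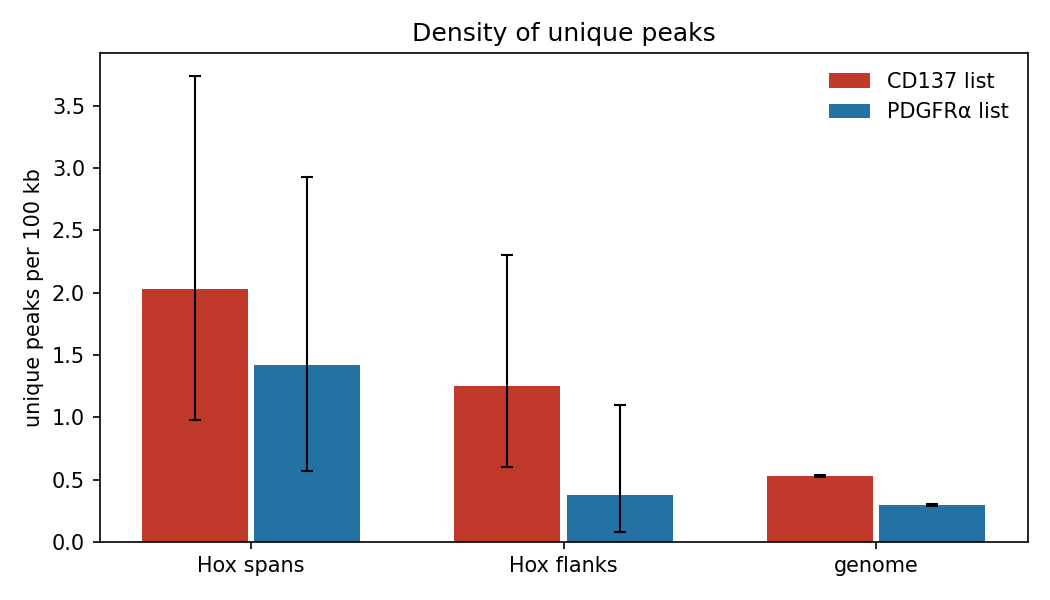
Unique peaks per 100 kb (vertical axis) inside the 4 Hox clusters, in their 100 kb flanks and over the genome, for the CD137 list (red) and the PDGFRα list (blue), with exact Poisson 95% intervals as bars. Inside the clusters both lists stand above their genome values of 0.532 and 0.294.

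The balance of the lists at the Hox clusters was close to that of the lists as a whole. Of the 30 peaks in the windows 66.7% were CD137 peaks (47.2 to 82.7%), against 64.4% of all 22485 peaks, and inside the clusters 58.8% were (32.9 to 81.6%). By cluster, counting the cluster and its flanks, HoxA (chromosome 6, 52155367 to 52260880) had 6 CD137 and 3 PDGFRα peaks. HoxB (chromosome 11, 96194316 to 96368254) had 6 and 2, HoxC (chromosome 15, 102921131 to 103036856) had 5 and 4, and HoxD (chromosome 2, 74668225 to 74765142) had 3 and 1. When the genome was cut into 8438 tiles of 323 kb, the mean length of these windows, 2.43% of tiles held as many peaks as HoxA or HoxC, 4.62% as many as HoxB and 32.2% as many as HoxD. Among the 577 tiles with 9 or more genes the shares were 2.08%, 4.33% and 41.6%. By window, HoxA, HoxB and HoxC were thus among the peak-rich tiles and HoxD was not. The windows ran from 297 kb (HoxD) to 374 kb (HoxB), while all were set against 1 tile length. Inside the clusters, against tiles of 123 kb, the shares were 1.84% for HoxA and HoxC, 5.05% for HoxB and 12.7% for HoxD. Per 100 kb of cluster, HoxD held 2.06 CD137 and 1.03 PDGFRα peaks, above the 1.72 and 0.575 of HoxB. For CD137 peaks alone, 3.41% of all tiles held as many as HoxA or HoxB, 7.57% as many as HoxC and 27.7% as many as HoxD. For PDGFRα peaks alone the shares were larger for all but HoxC, at 12.4% for HoxA, 25.6% for HoxB, 5.33% for HoxC and 48.4% for HoxD, and among the tiles with 9 or more genes they were 20.3%, 39.5%, 7.28% and 66.7%. The farthest peak inside a window lay 91.8 kb from its cluster and the nearest outside one lay 119 kb away, both at HoxC.

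A peak was counted at each gene whose span contained its centre, and where there was none, at the closest gene up to 5 kb away. By this rule 15 of the 39 Hox genes (38.5%) had a peak, against 28.1% of all protein-coding genes and 16.1% of the 16380 genes no longer than Hoxa3, the longest Hox gene. Hoxa10, Hoxa11, Hoxb2, Hoxb13, Hoxc11, Hoxc12, Hoxc13 and Hoxd13, or 8 genes (20.5%), had CD137 peaks only, against 12.9% of all genes and 8.24% of the shorter ones. Hoxa3, Hoxa9, Hoxc4, Hoxc9 and Hoxc10, or 5 genes (12.8%), had PDGFRα peaks only, against 8.03% and 6.46%. Hoxb3 and Hoxd3 (5.13%) had peaks of both lists, against 7.16% and 1.43%. The other 24 had no listed peak. They include Hoxc8 and most genes of the middle of the clusters. Counted as pairs of a gene and a peak, the Hox genes had 11 CD137 and 7 PDGFRα pairs, a CD137 share of 61.1%, against 61.6% over all protein-coding genes.

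**Figure D2:**
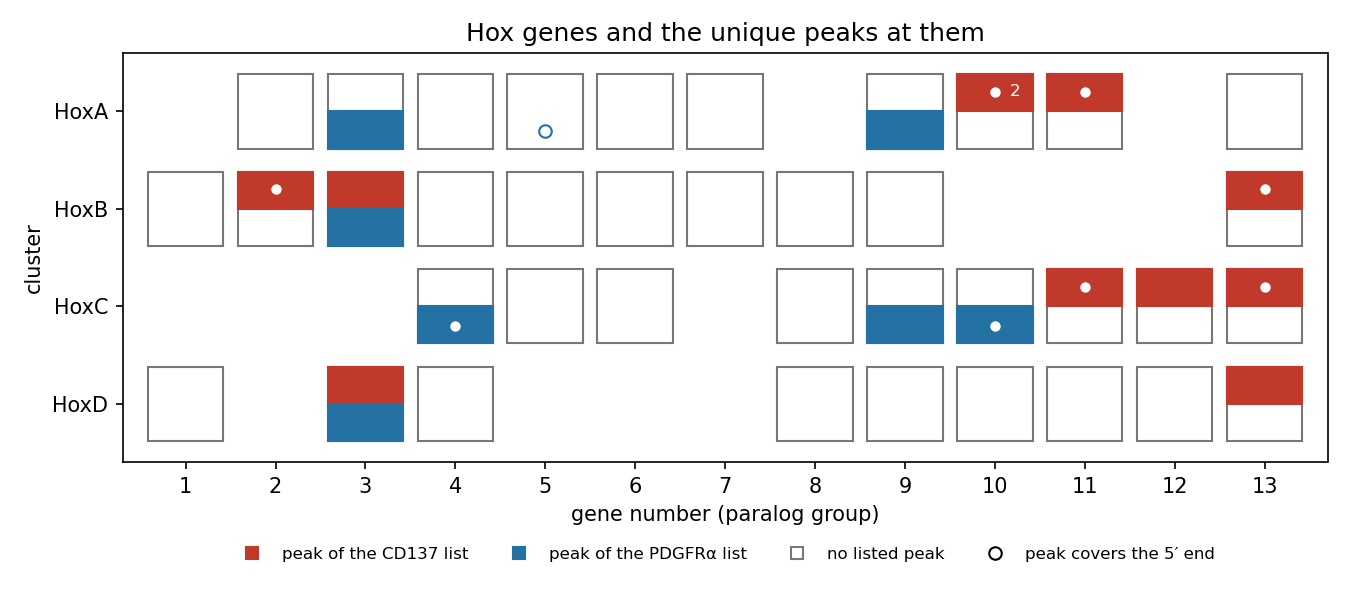
Hox genes by cluster (rows) and gene number (columns), with red for a CD137 peak and blue for a PDGFRα peak at the gene, a 2 where a gene had 2 peaks and a small circle where a peak covered the 5′ end of the gene. Of the central genes (4 to 8) only Hoxc4 is filled, and at Hoxb3 and Hoxd3 both colours meet. The circle at Hoxa5 belongs to a peak counted at Hoxa3.

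Peaks of both lists lay in the anterior and posterior parts of the number series, and few were counted at central genes. Of the 16 posterior genes (numbers 9 to 13), 7 carried the CD137 list alone, 3 the PDGFRα list alone and 6 neither. Of the 15 central genes (4 to 8), Hoxc4 had a PDGFRα peak and 14 had none, with the peak over the start of Hoxa5 counted at Hoxa3. Over all protein-coding genes 28.1% had a peak of either list, and 16.1% of the shorter ones did. The central count also depends on the rule, since counting every gene within 5 kb adds Hoxa5, Hoxa6 and Hoxa7. Of the 8 anterior genes (1 to 3), 1 carried the CD137 list alone, 1 the PDGFRα list alone, 2 both and 4 neither. All 3 genes numbered 3 had a PDGFRα peak, and each of them is a long gene in RefSeq that spans other starts. Numbers 3 and 10 carried peaks of both lists. With bounds chosen after the values were seen, so that they support nothing, 6 of the 9 genes numbered 11 to 13 had a CD137 peak and none had a PDGFRα peak, whereas of the 30 genes numbered 1 to 10, 4 had a CD137 peak and 7 had a PDGFRα peak. Over all protein-coding genes 12.9% had CD137 peaks alone, 8.03% PDGFRα peaks alone and 7.16% peaks of both lists. Of the shorter ones 8.24%, 6.46% and 1.43% did. A count of 0 in 9 genes for PDGFRα peaks is therefore near the background. With centres inside the gene alone, 1 of the 9 had a CD137 peak, since 5 of the 6 genes have their peak centre outside the gene, by at most 4.75 kb.

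**Figure D3:**
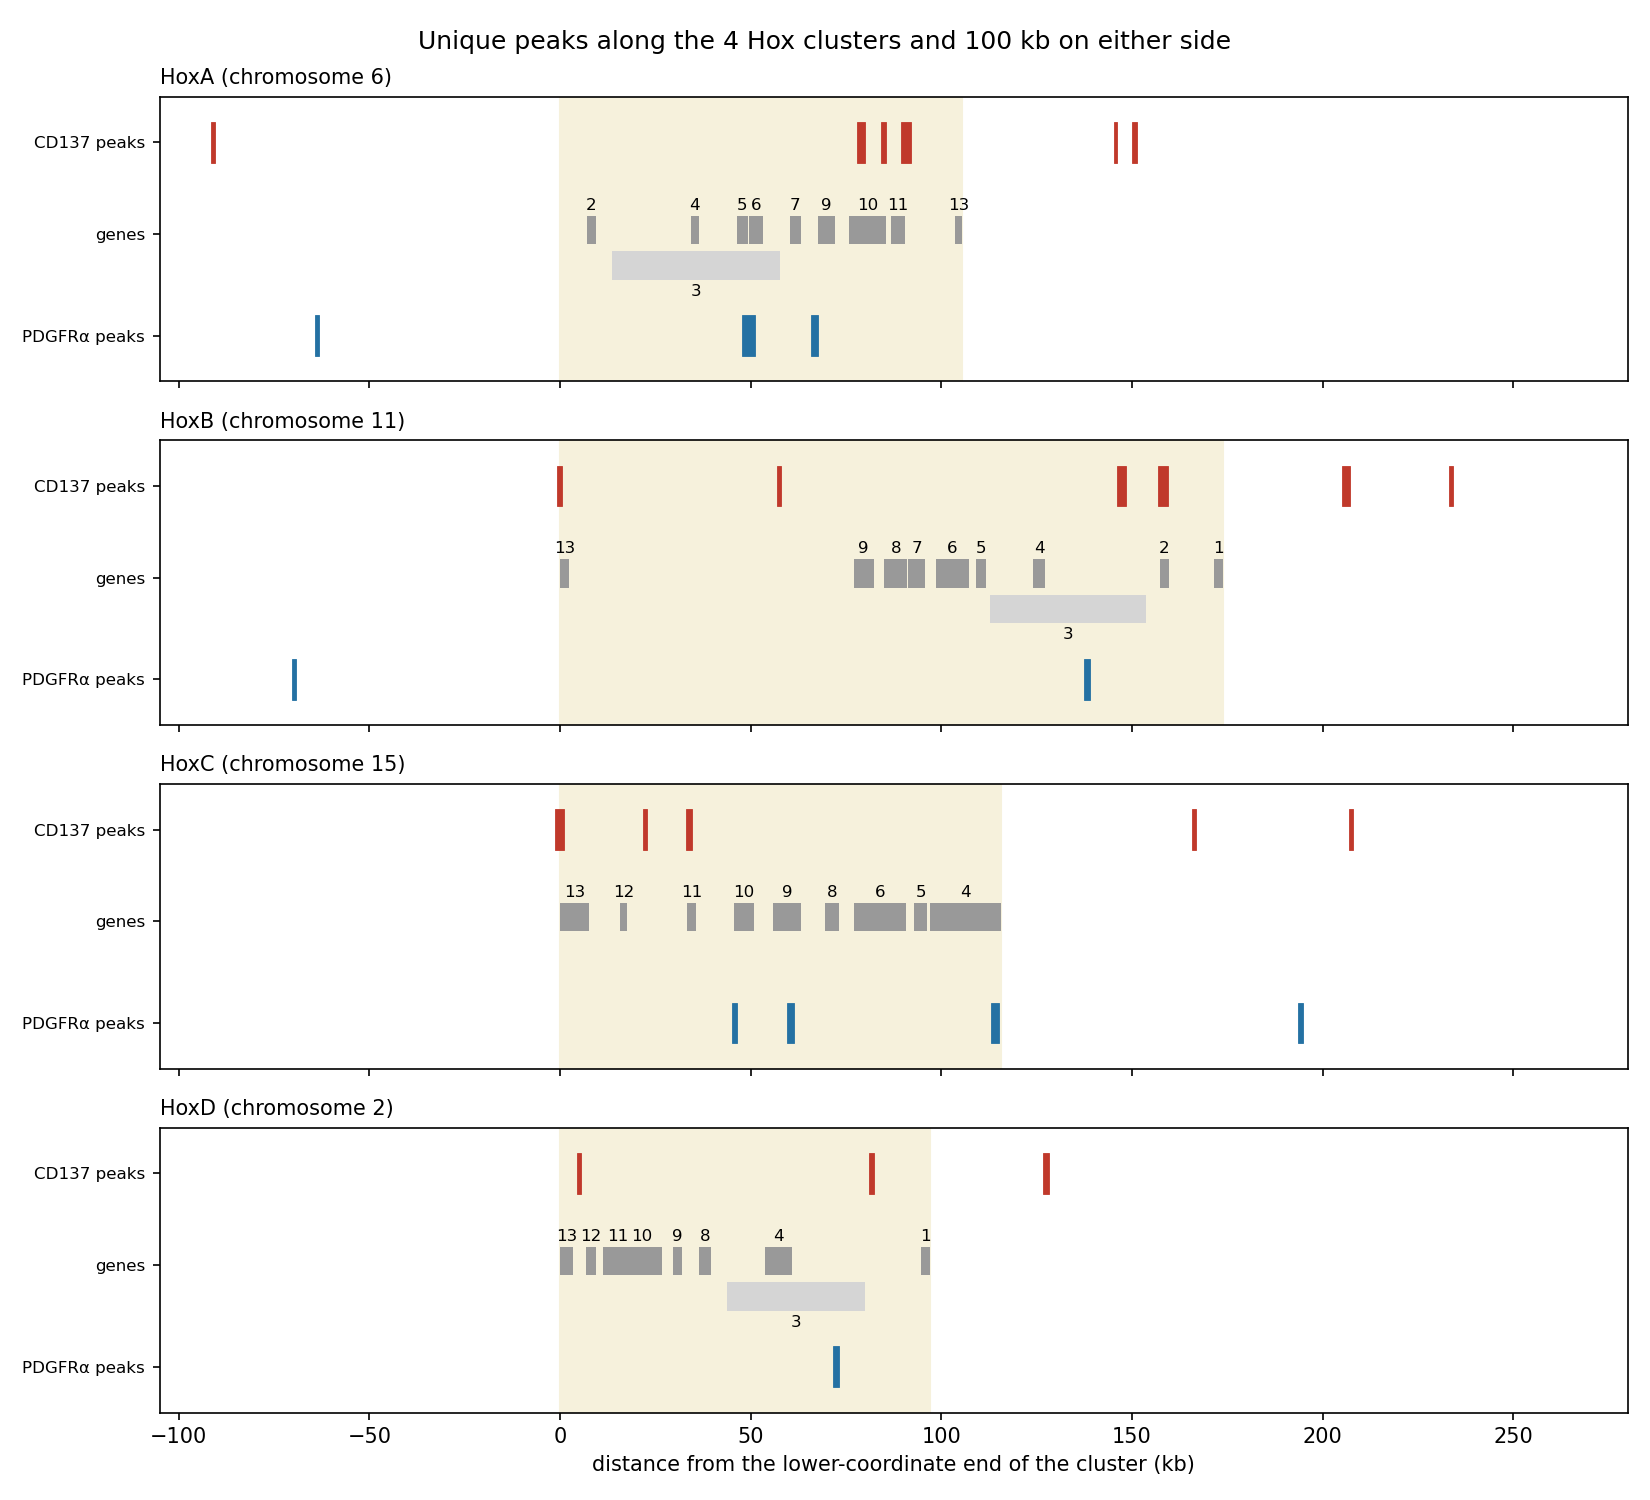
Map of the 4 clusters (shaded) with 100 kb on either side. The horizontal axis is the distance in kb from the lower-coordinate end of the cluster, grey boxes are the genes with their numbers (light grey below for genes over 30 kb), red boxes are CD137 peaks and blue boxes PDGFRα peaks, to scale. In HoxA and HoxC the CD137 peaks inside the cluster lie toward the 13 end and the PDGFRα peaks away from it. In HoxB and HoxD CD137 peaks lie on both sides of the PDGFRα peak inside the cluster.

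In HoxA the lists were separated along the cluster. Toward the 13 end came 2 PDGFRα peaks and then 3 CD137 peaks, with 10.2 kb between the last of the first kind and the first of the second. The first PDGFRα peak (52203106 to 52206559, class up5k) was 3453 bp wide, and only 0.537% of that list were as wide. It covered the start of Hoxa5, a gene of lung and axial patterning, and the lower end of Hoxa6, and its centre lay between them, inside the RefSeq span of Hoxa3 (44009 bp). The count therefore gives it to Hoxa3, although the start of Hoxa3, at the higher end of that span, was not covered. The second (52221114 to 52222971) lay between Hoxa7 and Hoxa9, with its centre 1.05 kb from the 3′ end of Hoxa9, a gene of blood progenitors.

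The 3 CD137 peaks of HoxA were at Hoxa10 and Hoxa11, which pattern the uterus and the limb. The RefSeq table gives 2 starts for Hoxa10, and each was under a CD137 peak, at 52233157 to 52235319 (2162 bp) and 52239592 to 52240933 (1341 bp). The third peak (52244926 to 52247354, 2428 bp) covered the start of Hoxa11 and that of its antisense RNA Hoxa11os. No peak of either list was at Hoxa13. Beyond it, 2 CD137 peaks lay 40.2 and 45.3 kb outside the cluster (52300627 to 52301499 and 52305482 to 52306823), between Hottip, a long noncoding RNA of the posterior HoxA end, and Evx1, a homeobox gene beside the cluster. At the other end the flank held 1 CD137 peak (52063731 to 52064978) and 1 PDGFRα peak (52091178 to 52092037), both classed intergenic.

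The promoters under these peaks are shown because they carry the split in HoxA between Hoxa5 and its posterior neighbours. Each runs from 250 bases before the start to 50 bases after it, from RefSeq on build GRCm38.p6, minus strand, 5′ to 3′, with CpG sites in capitals. The Hoxa5 promoter (chr6:52204538-52204837) lay wholly under a PDGFRα peak, and those of the inner Hoxa10 start (chr6:52234890-52235189) and of Hoxa11 (chr6:52245761-52246060) wholly under CD137 peaks.
Hoxa5: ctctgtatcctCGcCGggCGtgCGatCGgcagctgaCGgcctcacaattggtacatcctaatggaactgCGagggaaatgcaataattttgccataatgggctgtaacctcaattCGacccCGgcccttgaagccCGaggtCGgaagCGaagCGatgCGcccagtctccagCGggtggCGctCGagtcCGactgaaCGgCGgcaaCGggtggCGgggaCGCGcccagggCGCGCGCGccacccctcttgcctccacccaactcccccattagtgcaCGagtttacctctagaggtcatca
Hoxa10: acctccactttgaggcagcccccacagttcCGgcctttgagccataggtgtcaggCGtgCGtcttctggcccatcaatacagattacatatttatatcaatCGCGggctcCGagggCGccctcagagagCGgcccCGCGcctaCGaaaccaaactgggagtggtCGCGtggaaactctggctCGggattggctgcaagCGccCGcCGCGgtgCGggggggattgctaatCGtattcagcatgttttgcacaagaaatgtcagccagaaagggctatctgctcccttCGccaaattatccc
Hoxa11: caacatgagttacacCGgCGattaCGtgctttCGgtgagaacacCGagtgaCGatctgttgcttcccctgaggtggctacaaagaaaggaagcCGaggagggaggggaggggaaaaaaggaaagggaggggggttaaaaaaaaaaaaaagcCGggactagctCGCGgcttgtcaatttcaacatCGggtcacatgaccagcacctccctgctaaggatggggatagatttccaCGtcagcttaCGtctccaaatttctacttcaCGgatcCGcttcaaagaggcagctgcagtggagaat
They hold 29, 21 and 15 CpG sites, against a median of 7 over 32851 promoters, of which 12.9%, 24.8% and 34.6% have as many. The outer Hoxa10 promoter, with 12 CpG sites, was covered over 129 of its 300 bases.

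HoxC showed the same order as HoxA, but HoxB and HoxD did not. In each of those, CD137 peaks lay on both sides of the single PDGFRα peak inside the cluster. From the 13 end of HoxC came 3 CD137 peaks and then 3 PDGFRα peaks, with 10.4 kb between the kinds. The first CD137 peak (102919924 to 102922257, 2333 bp) covered the 5′ end of Hoxc13, a regulator of hair keratins, and its centre lay 0.0405 kb outside the cluster. The second (102942840 to 102943886) lay 4.75 kb beyond Hoxc12, measured from its centre, and its edge was 0.176 kb from Hotair, a long noncoding RNA between Hoxc12 and Hoxc11. The third (102954184 to 102955801, 1617 bp) covered the 5′ end of Hoxc11.

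The PDGFRα peaks of HoxC lay at Hoxc10, Hoxc9 and Hoxc4. Hoxc9 and Hoxc10 are known for higher expression in subcutaneous than in visceral fat. At Hoxc10 the peak (102966173 to 102967616, 1443 bp, up5k) covered the 5′ end, and at Hoxc9 (102980558 to 102982410, 1852 bp) it was inside the gene and classed exon. The peak at Hoxc4 (103034092 to 103036205, 2113 bp, exon) covered the start that the promoter table lists. Hoxc5, Hoxc6 and Hoxc8, which lie between Hoxc4 and Hoxc9, had no listed peak. In the flank on the Hoxc4 side came a CD137, a PDGFRα and a CD137 peak in turn, 50.5, 78.5 and 91.8 kb from the cluster. All were classed intergenic, although the last overlapped the noncoding gene D930007P13Rik. The Hoxc4 promoter (chr15:103034145-103034444, plus strand, CpG sites in capitals) is shown because a listed peak covered it, and it is the one HoxC promoter that the table holds.
Hoxc4: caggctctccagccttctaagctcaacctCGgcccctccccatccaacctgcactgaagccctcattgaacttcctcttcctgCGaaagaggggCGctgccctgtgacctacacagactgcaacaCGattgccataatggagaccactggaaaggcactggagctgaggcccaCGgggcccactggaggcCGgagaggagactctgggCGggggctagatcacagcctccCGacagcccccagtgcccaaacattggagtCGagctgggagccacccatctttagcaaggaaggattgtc
It holds 9 CpG sites, and 45.8% of promoters have as many.

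HoxB had peaks at its ends and few in the middle. A CD137 peak (96193509 to 96194710) covered the 5′ end of Hoxb13, a gene of the tail bud and prostate, with its centre 0.207 kb outside the cluster. A second (96251111 to 96252264) covered the lower end of the noncoding gene Gm53, between Hoxb13 and Hoxb9 and 19.6 kb from the latter. At the other end 2 wide CD137 peaks lay in Hoxb3 (96340361 to 96342775, 2414 bp) and over the 5′ end of Hoxb2, a hindbrain gene (96351258 to 96353755, 2497 bp). The latter peak also covered the start of Hoxb3os, the antisense gene beside Hoxb3. The single PDGFRα peak inside HoxB (96331882 to 96333229) was in Hoxb3 as well, 7.13 kb from the nearer CD137 peak, the smallest gap between opposite lists in the 4 windows. No peak was given to Hoxb4 to Hoxb9 or to Hoxb1. In the flanks lay 1 PDGFRα peak over the shared end of Calcoco2 and Ttll6 (96123916 to 96125037) and 2 CD137 peaks on the Hoxb1 side (96399380 to 96401652 and 96427380 to 96428435).

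HoxD had the fewest peaks. One CD137 peak (74672615 to 74673799) had its centre 1.60 kb beyond Hoxd13, a gene of digits and the genital tubercle, between it and Hoxd12. At Hoxd3, a gene of the anterior vertebrae, a PDGFRα peak (74739926 to 74741422, intron) and a CD137 peak (74749236 to 74750459) were 7.81 kb apart, the latter inside the long noncoding gene Haglr. A further CD137 peak (74795015 to 74796424) lay 30.6 kb beyond Hoxd1, toward Mtx2. Hoxd1, Hoxd4 and Hoxd8 to Hoxd12 had none under the main rule.

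The 5′ ends of 9 Hox genes were under a listed peak. A CD137 peak covered those of Hoxa10, Hoxa11, Hoxb2, Hoxb13, Hoxc11 and Hoxc13, and a PDGFRα peak those of Hoxa5, Hoxc10 and, at the start listed for it, Hoxc4. The promoter table holds 24 entries for 22 of the 39 genes. Those not in it include Hoxa4, Hoxb2, Hoxb3, Hoxb5, Hoxb6, Hoxb7, Hoxb9, Hoxb13, Hoxc5, Hoxc6 and Hoxc8 to Hoxc13, and for them the 5′ end is the gene end on the strand of their cluster. Of the 24 entries 3 (12.5%) had their start under a CD137 peak and 2 (8.33%) under a PDGFRα peak, against 2.44% and 1.62% of all 32851 entries. The 3 CD137 entries came from only 2 neighbouring genes of HoxA, being both starts of Hoxa10 and that of Hoxa11. The PDGFRα entries were those of Hoxa5 and Hoxc4. CpG sites did not set the covered entries apart, with a median of 15 in those 5 and of 14 (4 to 45) in the 19 others. Over all Hox entries the median was 14.5, against 7 over all promoters.

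Both strands of the promoters were searched for motifs. These were the HOX-PBX motif TGATTNAT, the TEAD motif GGAATG and the glucocorticoid receptor half-site TGTTCT, and none of them contains another. They occurred in 3.22%, 14.7% and 19.0% of all promoters and each in 8.33% of the 24 Hox entries. Among the 5 covered entries the only match was 1 half-site, at Hoxa11.

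Peaks inside the clusters were wide. The 7 PDGFRα peaks inside them measured 1347 to 3453 bp with a median of 1852 bp, and all 7 exceeded the median of that list, 1237 bp. The 10 CD137 peaks measured 1046 to 2497 bp with a median of 1479 bp, and 7 of them exceeded their list's median of 1221 bp. In the flanks the medians were 1121 bp (3 PDGFRα peaks) and 1224 bp (10 CD137 peaks). Of the 20 CD137 peaks in the windows 6 (30%) were 2 kb or wider, against 4.94% of the list, and of the 10 PDGFRα peaks 2 (20%) were, against 5.52%. The wide ones lay at Hoxa5, Hoxa10, Hoxa11, Hoxb2, Hoxb3, Hoxc4 and Hoxc13, and 1 lay beyond Hoxb1. No CD137 peak in the windows was classed intron or exon, where the whole list had 31.7% and 7.17%. That count reads against the RefSeq spans only in part, since CD137 peaks with centres in Hoxa10, Hoxb2, Hoxb3 and Hoxc11 were classed up5k or down5k.

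**Figure D4:**
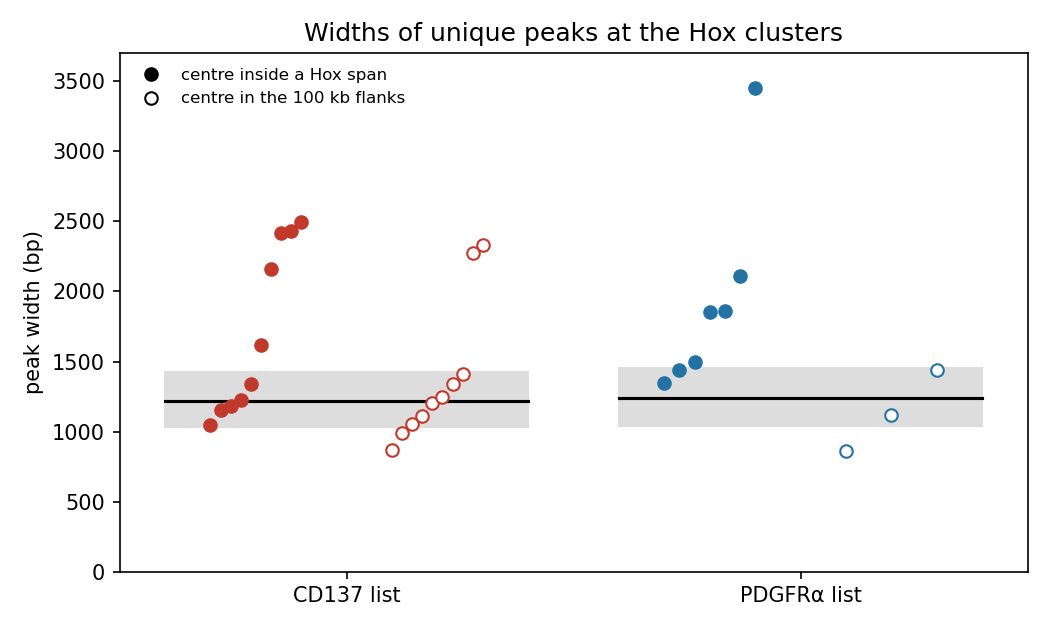
Width in bp (vertical axis) of each peak in the Hox windows, for both lists, with filled circles for centres inside a cluster and open circles for the flanks. Grey boxes are the interquartile range of the whole list and black lines its median (1221 and 1237 bp). All 7 PDGFRα peaks inside clusters lie above the line.

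Farther out, the flanks of HoxD and the 13 side of HoxA held mostly CD137 peaks. Within 500 kb HoxD and its flanks had 13 CD137 and 2 PDGFRα peaks (86.7%, 59.5 to 98.3%), an interval that contains the 64.4% of the whole lists. On the Hoxd13 side there were 4 and 0, and on the Hoxd1 side 7 and 1. At HoxA the side beyond Hoxa13 had 7 and 0 within 500 kb and the opposite side had 3 and 5. At HoxB each side had 4 and 3, and at HoxC the 13 side had 2 and 1 and the Hoxc4 side 5 and 4. Windows of this size also hold other genes.

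The clusters also encode microRNAs of the miR-196 and miR-10 families, which target Hox messages. In brown-like fat cells miR-196a is known to act by repressing Hoxc8. Their mature 5p strands, from RefSeq, are shown for the seed (bases 2 to 8, in capitals), which is shared within each family.
miR-196a-5p: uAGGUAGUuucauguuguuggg
miR-196b-5p: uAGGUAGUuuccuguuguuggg
miR-10a-5p: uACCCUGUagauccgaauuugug
miR-10b-5p: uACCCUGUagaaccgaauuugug
None of the 6 microRNA genes inside the clusters was under a listed peak. Mir196b, between Hoxa9 and Hoxa10, was 2.99 kb from the edge of a CD137 peak and 7.11 kb from that of a PDGFRα peak. Mir196a-2, between Hoxc10 and Hoxc9, was nearer to a PDGFRα peak (5.73 kb, against 17.5 kb to a CD137 peak), and Mir196a-1, beside Hoxb9, was nearer to a CD137 peak (12.9 kb, against 66.6 kb). Mir10a, Mir10b and Mir615 were 13.8 to 19.1 kb from a PDGFRα peak and 23.1 to 59.1 kb from a CD137 peak.

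Genes that act with or on Hox genes had peaks of both lists. Of 11 TALE homeodomain genes, whose products bind DNA beside Hox proteins, 2 carried the CD137 list alone, 1 the PDGFRα list alone and 3 both, against 12.9%, 8.03% and 7.16% of all protein-coding genes, with 11 CD137 and 10 PDGFRα peaks in all. Pknox2 had 4 and 6, Meis1 had 2 and 0 and Meis2 had 1 and 2. The CD137 share of 52.4% (29.8 to 74.3%) had an interval that contains the 61.6% over the peaks at all protein-coding genes.

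Of 30 Polycomb genes, 5 carried the CD137 list alone, 4 the PDGFRα list alone and 2 both. Against the same shares of all genes this is near the background, and the CD137 share of their peaks, 61.1% (35.7 to 82.7%), was close to the 61.6% over all genes. The methyltransferase genes Ezh1 and Ezh2 each had 1 PDGFRα peak and no CD137 peak, while Jarid2 had 3 and 1, Aebp2 had 3 and 0 and Bmi1 had 1 and 0. Of 14 Trithorax-type genes 12 had no peak, where 71.9% of all protein-coding genes had none. Kmt2a, which encodes a histone methyltransferase that keeps Hox genes active, had 2 CD137 peaks. The remodeller gene Smarca4 had 3 PDGFRα peaks.

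Retinoic acid is a classical inducer of Hox clusters. Of 17 genes of its signalling and of caudal inputs, 2 carried the CD137 list alone, 4 the PDGFRα list alone and 4 both, against 12.9%, 8.03% and 7.16% of all genes, and several of these genes are long. The CD137 share of their peaks was 48.3% (29.4 to 67.5%), an interval that contains 61.6%. Of the genes for enzymes that make retinoic acid, Aldh1a2 and Aldh1a3 had 1 and 2 PDGFRα peaks without a CD137 peak, and Aldh1a1 had 1 of each. A PDGFRα peak without a CD137 peak was also at Cyp26b1, which encodes an enzyme that breaks it down. Of the receptor genes, Rxra had 5 CD137 and 2 PDGFRα peaks, Rara and Rxrg had 1 and 0, Rxrb had 0 and 1, and Rarb, which spans 651 kb, had 5 and 5. Of 14 homeobox genes next to or related to the clusters, Gbx1 had a PDGFRα peak, Gbx2 a CD137 peak and Gsx1 1 of each. The other 11 had none, Evx1 and Evx2 among them, as had 71.9% of all protein-coding genes.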

How the data were processed

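ATAC-seq peaks were measured in 1 library of CD137+ and 1 of PDGFRα+ adipose progenitors, both treated with dexamethasone. The deposited files are lists of unique peaks with chromosome, start, end, an Ensembl ID and a place class, per the file headers. The submitters' processing notes name CASAVA 1.8 and mm10, without a role. Not given in the sources used here are the aligner, peak caller, threshold, rule for uniqueness, and whether starts count from 0 or 1.

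Gene, promoter and microRNA tables were RefSeq's for GRCm38.p6. Peaks were placed by centre, and their distances to Hox genes and clusters were measured from it. Gaps between peaks and distances to Hotair and the microRNA genes were measured from peak edges. All 500 simulated centres inside genes were recovered, which checks the code only, since the rule gives such centres to their gene by definition. The step to the closest gene up to 5 kb away was not checked this way. ID and strand were compared for IDs with at least 80% of their intronic and exonic peaks at 1 gene. Every Hox gene with a peak was named. Non-member genes of the windows at or beside a peak were named only in part. Among those not described, the noncoding genes Hoxaas3, Gm36878 and Gm30528 were overlapped by the PDGFRα peaks at Hoxa5, Hoxc9 and Hoxc4. Values of 2 genes are not reported here. Members and lists were chosen with earlier results of these data known. With 1 library per group no test was run. Alternatives changed the window, the peaks used and the assignment. Computations used matplotlib 3.10.9, scipy 1.17.1, pandas 2.3.3, numpy 2.4.6 and Python 3.11.15.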

Additional observations from a re-analysis of the deposited data

How the results depend on the processing

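The CD137 shares of all 4 windows together and of each cluster stayed within the exact interval of the reported value in all 7 alternatives (windows of 0, 50, 200 and 500 kb, the widest CD137 peaks, the wider 50% of each list, any overlap), although these intervals are broad. For all 4 windows together they ran from 58.3 to 69.6%. The HoxC share of 55.6% (5 CD137 and 4 PDGFRα peaks) fell below 50%, to 40% inside the cluster, 45.5% at 200 kb and 33.3% (2 and 4) with either choice of wider peaks, so which list was ahead at HoxC depended on the setting. The number of Hox genes with CD137 peaks only was 3 with centres inside the gene alone and 5 among the wider 50% of each list, against 8, and was within 1.5 times in the other 6 alternatives. PDGFRα peaks alone were at 8 genes when every gene within 5 kb was counted, against 5, which adds Hoxa5, Hoxa6 and Hoxa7. Peaks of both lists were at 1 gene, Hoxb3, with centres inside the gene alone and with any overlap of the gene body, against 2. These changes follow from how each alternative assigns or drops peaks. No paired analysis was possible because neither group holds more than 1 library, for which reason none could be left out. Depth is unknown and was not equalised.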
